A study of Homo sapiens with 12 samples.

Results

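The comparison described here is the difference between the effects of NUDT21 knockdown in MUTZ-1 and in SKM-1, both of them human cell lines. For each gene the log2 change from control to knockdown in SKM-1 was subtracted from the log2 change in MUTZ-1, so that a negative difference means that the gene moved lower in MUTZ-1 than in SKM-1. The difference was read over the 8522 genes whose mean was 5 CPM (counts relative to the scaled library total) or more in all 4 groups, out of 13625 genes tested and 17518 in the table. It says how far the 2 lines answered one knockdown in opposite ways, in 1 line alone, or alike.

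All 12 libraries entered, 3 in each of 4 groups: MUTZ-1 with a control hairpin (shRNA, a short RNA that silences a gene by RNA interference), MUTZ-1 with an shRNA against NUDT21, SKM-1 with the control shRNA and SKM-1 with the shRNA against NUDT21. The labels give marrow as the tissue and myelodysplastic syndrome, in which blood formation fails and can pass into leukaemia, as the disease of both lines. A single hairpin appears in the column names of each line, so effects of that sequence on other transcripts and of the loss of NUDT21 cannot be told apart. The labels used here name no passage, clone, day of harvest or vector, and knockdown was compared with a control hairpin, not with untouched cells.

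NUDT21 is the small subunit of CFIm, the cleavage factor that recognises UGUA sequences in new transcripts ahead of the site where they are cut. CFIm favours the use of distal poly(A) sites, and loss of the small subunit shifts many transcripts to shorter 3' ends. The larger subunits, CPSF6 and CPSF7, join the same complex and carry its contacts to the rest of the processing machinery. Counts per gene do not show which 3' end was used.

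Total counts ran from 15843012 to 18426619 per library. The common dispersion of the fit, which leaves out counting noise, gave a coefficient of variation between replicates of 2.44%. The measured spread of single genes could be larger, as for PCBP4 in SKM-1 control (mean 17.8, SD 2.74 CPM). Blood lineage was read from marker genes. MUTZ-1 libraries held B-lineage markers, with 3403 to 3422 CPM summed over 15 genes in control and 3109 to 3181 after knockdown, against 13.2 to 19.02 and 13.9 to 14.3 in SKM-1. The members went both ways in MUTZ-1: MS4A1 was lower after knockdown (187 to 23.2 CPM), and CD22 (214 to 257 CPM) and POU2AF1 (534 to 603 CPM) were higher. PAX5, the factor that fixes B-cell identity, was at 610.3 CPM in MUTZ-1 control and 0.749 CPM in SKM-1 control. SKM-1 libraries held erythroid markers, with 2524 to 2556 CPM summed over 21 genes in control and 7706 to 7999 after knockdown, and in MUTZ-1 the same sum was 756 to 775 and 325 to 331, mostly TFRC. GATA1, the factor that leads red-cell development, was at 63.97 and 270.1 CPM in SKM-1 control and knockdown and at 0.0566 and 0.142 CPM in MUTZ-1. In bulk libraries, a change in the share of cells of a type and a change in RNA per cell cannot be told apart.

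The remaining marker lists were low or held by a few genes. Of 10 megakaryocyte markers 4 were tested, summing to 119 to 122 CPM in SKM-1 control and 391 to 403 after knockdown, and to at most 3.56 CPM in MUTZ-1, and ITGA2B among them went from 16.1 to 6.09 CPM in SKM-1 against the sum. Of 12 monocyte markers 5 were tested. Their sum in SKM-1 was 955 to 977 CPM in control and 119 to 122 CPM after knockdown, carried by CD36 (917 and 26.5 CPM) against LYZ (9.12 and 25.3 CPM) and CD68 (31.7 and 58.3 CPM), and in MUTZ-1 82.3 to 89.6 and 35.5 to 39.3 CPM. Granulocyte markers, 3 of 8 tested, reached at most 3.85 CPM. T and NK markers, 3 of 10 tested, summed to 34.02 to 34.2 CPM in MUTZ-1 control and 56.1 to 59.1 after knockdown, mostly IL7R, and stayed at or under 3.77 CPM in SKM-1. Stem and progenitor markers, 8 of 10 tested, summed to 309.9 to 323 CPM in SKM-1 control and 536 to 542 after knockdown, and to 103 to 106 and 128 to 133 CPM in MUTZ-1, mostly MYB. The higher sum in SKM-1 was carried by MYB (56.7 to 281 CPM) and GATA2 (59.8 to 195 CPM), while 5 of the 8 were lower after knockdown, among them KIT (49.4 to 7.095 CPM), MEIS1 (64.95 to 10.7 CPM) and ERG (60.4 to 2.13 CPM). Endothelial markers were represented by PECAM1 alone, at 12.2 and 12.9 CPM in MUTZ-1 control and knockdown and at 2.93 and 7.697 CPM in SKM-1. The myeloid markers CD14, CSF1R, MPO and ELANE were not among the genes tested. Fibroblast markers (6 of 7 tested, 127 to 130.2 CPM in SKM-1 control and 161 to 164 after knockdown) and epithelial markers (4 of 6, 374 to 382 CPM in SKM-1 control and 764 to 789 after knockdown) were at 2.08 CPM or less in MUTZ-1. Among the fibroblast markers, FN1 carried the higher sum (61.3 to 147 CPM in SKM-1), while COL3A1 (46.2 to 1.75 CPM), COL1A1 (9.69 to 1.86 CPM) and PDGFRB (8.83 to 0.409 CPM) were lower after knockdown. The part of these markers in the differences below was not tested.

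The targeted gene fell in both lines. NUDT21 (chromosome 16, positions 56429133 to 56451332, GRCh38.p14) measured 301, 297 and 301 CPM in MUTZ-1 controls, and knockdown left 135, 136 and 142 CPM. The SKM-1 libraries gave 322, 336 and 344 CPM in control and 131, 132 and 129 CPM after knockdown. No knockdown library reached a control library in either line, and the fall was deeper in SKM-1 by 0.23 ± 0.041 (SE) on the log2 scale (adjusted p = 5.36e-08, edgeR's quasi-likelihood test, Benjamini-Hochberg adjusted). CPSF6, the large subunit that binds RNA beside NUDT21, rose by 0.44 ± 0.024 in MUTZ-1 and 0.40 ± 0.026 in SKM-1, and the 95% interval of the difference ran from -0.036 to 0.10 (adjusted p = 0.40). That difference, 0.034, was called in 8 of 21 alternative fits, with 0.16 under library totals and 0.084 to 0.11 without any 1 of MUTZ-1 control replicates 1 and 3, MUTZ-1 knockdown replicates 1 and 3 and SKM-1 knockdown replicate 1, so the 2 rises are not shown to be equal. CPSF7, the alternative large subunit, went in opposite directions. In MUTZ-1 it held 267, 266 and 281 CPM in control and 234, 241 and 242 CPM after knockdown. The SKM-1 values were 117, 112 and 114 CPM in control and 196, 201 and 194 CPM after knockdown. The groups did not overlap in either line, MUTZ-1 being lower and SKM-1 higher after knockdown, a difference of -0.97 ± 0.041 (adjusted p = 7.83e-60).

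The response was wider in SKM-1. Over the 8522 genes, the SD of the log2 change was 0.25 in MUTZ-1 and 0.81 in SKM-1, and that of the difference was 0.91. From the 5th to the 95th percentile, changes ran from -0.37 to 0.43 in MUTZ-1 and from -1.398 to 1.16 in SKM-1. In MUTZ-1, 2195 genes rose (25.8%) and 2853 fell (33.5%). In SKM-1, 4293 rose (50.4%) and 3129 fell (36.7%). The difference itself was called for 7184 of the 8522 genes (84.3%), and for 9806 of all 13625 genes tested (72%). It was more negative in MUTZ-1 for 4172 genes (49%) and more positive for 3012 (35.3%). At 2-fold or more, the counts were nearly equal, with 968 more negative (11.4%) and 963 more positive (11.3%). The counts of members given further on are read against these shares.

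Genes that moved in opposite directions were more numerous than genes that moved together. A fall in MUTZ-1 and a rise in SKM-1, with the difference called, was found for 1884 genes (22.1%). The reverse, a rise in MUTZ-1 and a fall in SKM-1, was found for 1131 (13.3%), which made 3015 opposite genes in all (35.4%). Both lines rose in 796 genes (9.34%) and fell in 684 (8.03%). Of the genes called in 1 direction in both lines, 1022 also had a called difference, and in 918 of them the change was the larger one in SKM-1. Across genes, the change in MUTZ-1 and the change in SKM-1 had Pearson's r of -0.26 and Spearman's rho of -0.27 (n = 8522 genes of the same libraries, scaled alike). Genes are not independent replicates, and these values are a description. Most opposite changes were small in MUTZ-1. Both changes reached 1.5-fold in 40 genes that fell in MUTZ-1 (0.469%) and in 69 that rose there (0.81%).

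The split of directions depends on how libraries were scaled. With trimmed means, 58.1% of called differences were more negative in MUTZ-1 and 62.5% of opposite genes fell in MUTZ-1. With library totals alone these shares were 50.5% and 48.0%, and the median difference over all genes moved up by 0.13 on the log2 scale. With a trend on gene length removed they were 63.8% and 69.3%, and the median moved by -0.11. The share of opposite genes that fell in MUTZ-1 was 53.2% with chromosome medians removed, and 48.4% and 47.9% in fits of log2(FPKM + 0.1) and log2(FPKM + 1). Differences smaller than these shifts can take either sign with the scaling.

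**Figure D1:**
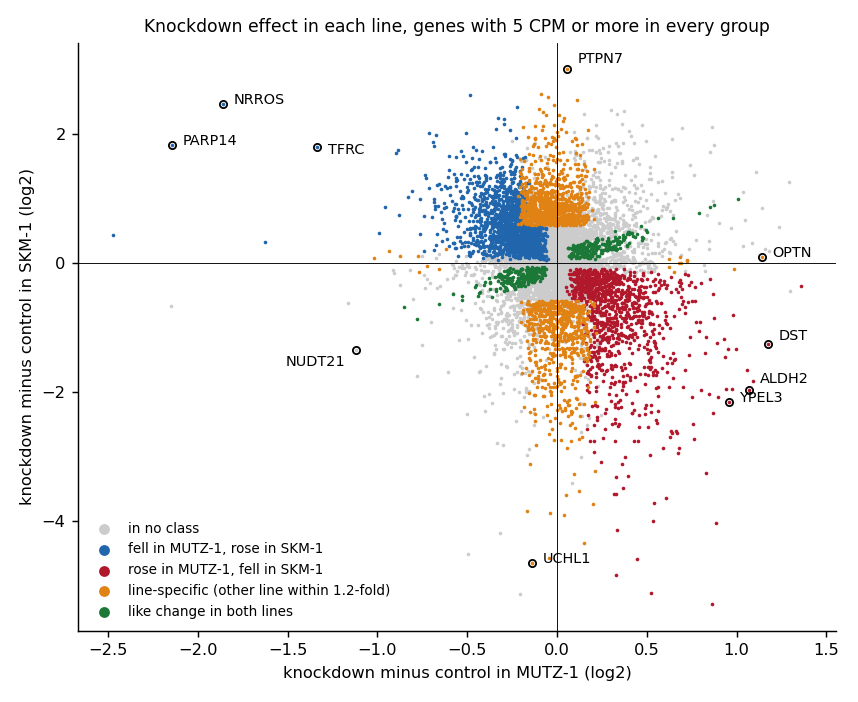
Each point is 1 of the 8522 genes, with its log2 change after NUDT21 knockdown in MUTZ-1 on one axis and in SKM-1 on the other, coloured by class of response. The cloud is wider along SKM-1 (SD 0.81) than along MUTZ-1 (SD 0.25), and the named opposite genes lie in the quadrants where the signs differ.

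Among the 1884 genes that fell in MUTZ-1 but rose in SKM-1, the control and knockdown libraries did not overlap in either line for 1780. The median changes were -0.22 in MUTZ-1 and 0.57 in SKM-1, and the SKM-1 change was the larger one in 1625. In the control libraries 1564 of them were higher in MUTZ-1, and after knockdown 550 were, so that the order of the lines turned in 1014. Of the 1131 genes with the reverse pattern, 1062 had no overlap in either line, with median changes of 0.28 and -0.70. Here 302 were higher in MUTZ-1 in control and 861 after knockdown. Genes in these classes were chosen by a called change in each line, which already favours libraries without overlap. Counts of overlap and of the order of the lines are not given over all genes compared. These counts thus describe the classes and cannot be read against a background.

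By the size of the smaller of the 2 changes, NRROS, PARP14, TFRC, ZNF655, HELZ2, PRKAR1B, TRMT61A and NAPRT led the genes that fell in MUTZ-1 but rose in SKM-1. NRROS (chromosome 3, positions 196639694 to 196662004) anchors latent TGF-beta on the surface of myeloid cells and microglia. It measured 28.4, 27.1 and 29.9 CPM in MUTZ-1 controls, with 7.97, 8.27 and 7.26 CPM after knockdown, against 6.24, 5.26 and 5.57 CPM in SKM-1 control and 30.8, 31.3 and 31.9 CPM in SKM-1 knockdown. The 4 groups were thus apart, and SKM-1 after knockdown stood about where MUTZ-1 had started. The log2 changes were -1.86 ± 0.092 (SE) and 2.46 ± 0.095, and the difference -4.32 ± 0.13 was the most negative of all 8522 genes (adjusted p = 4.06e-82, edgeR's quasi-likelihood test). PARP14 (chromosome 3, positions 122680839 to 122730840), an ADP-ribosyltransferase that interferon induces, measured 30.1, 29.4 and 30.3 CPM in MUTZ-1 control and 5.63, 7.7002 and 7.02 CPM after knockdown. In SKM-1 it went from 12.9, 15.1 and 12.01 CPM to 49.6, 44.5 and 48.3 CPM. All knockdown libraries of MUTZ-1 were below, and all of SKM-1 above, their controls, with changes of -2.15 ± 0.091 and 1.83 ± 0.076 and a difference of -3.97 ± 0.12 (adjusted p = 8.87e-84).

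TFRC, the transferrin receptor that takes up iron, was the most abundant of the 8. MUTZ-1 controls held 746, 722 and 741 CPM and MUTZ-1 knockdown 295, 289.7 and 289.8 CPM. SKM-1 controls held 414, 432 and 425 CPM and SKM-1 knockdown 1451, 1448 and 1486 CPM, so that the gene moved away from its controls in either line, down in MUTZ-1 and up in SKM-1, with a difference of -3.12 ± 0.030. It is 1 of the 21 erythroid markers, whose sum in SKM-1 rose alongside it, and their part in its difference was not tested. HELZ2, an interferon-stimulated helicase (chromosome 20, positions 63558086 to 63574239), had 38.4, 37.2 and 38.2 CPM in MUTZ-1 control and 18.5, 20.9 and 19.3 CPM after knockdown. Its SKM-1 libraries held 6.24, 6.24 and 6.49 CPM in control and 12.8, 12.3 and 9.37 CPM after knockdown. The groups were apart in both lines, and the difference was -1.82 ± 0.13. ZNF655, a zinc finger protein of chromosome 7, fell in MUTZ-1 (53.3 ± 3.98 to 28.6 ± 0.568 CPM) but rose in SKM-1 (11.96 ± 0.595 to 38.9 ± 0.295 CPM), a difference of -2.598 ± 0.096. PRKAR1B, a regulatory subunit of protein kinase A, fell in MUTZ-1 (64.5 ± 1.42 to 34.99 ± 2.83 CPM) but rose in SKM-1 (11.98 ± 0.787 to 40.2 ± 1.22 CPM), a difference of -2.63 ± 0.092. Their rises in SKM-1 were close to that of TFRC (1.79 on the log2 scale), and their falls in MUTZ-1 stayed under 2-fold. TRMT61A, the catalytic subunit of a tRNA methyltransferase, fell in MUTZ-1 (35.9 ± 3.47 to 20.2 ± 0.7595 CPM) but rose in SKM-1 (14.8 ± 1.21 to 30.1 ± 1.31 CPM), a difference of -1.85 ± 0.11. NAPRT, which makes NAD from nicotinic acid, fell in MUTZ-1 (10.9 ± 1.199 to 6.26 ± 0.294 CPM) but rose in SKM-1 (22.9 ± 1.23 to 49.3 ± 2.11 CPM), a difference of -1.91 ± 0.13. For these 8 genes the highest adjusted p was 3.23e-11 in MUTZ-1, 4.04e-13 in SKM-1 and 8.01e-30 for the difference.

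The 8 genes that led the reverse pattern, up in MUTZ-1 and down in SKM-1, were DST, PCBP4, ALDH2, EPN2, GSN, SELENON, YPEL3 and ZBED8. DST (chromosome 6, positions 56457996 to 56954830), which encodes large linkers between the cytoskeleton and cell junctions, measured 31.4, 29.8 and 31.6 CPM in MUTZ-1 control and 70.96, 69.05 and 69.3 CPM after knockdown. SKM-1 control libraries gave 101, 98.4 and 99.5 CPM and SKM-1 knockdown libraries 39.6, 42.9 and 43.1 CPM. Its groups were apart in both lines, with changes of 1.17 ± 0.051 and -1.25 ± 0.046 and a difference of 2.42 ± 0.069 (adjusted p = 6.41e-88). PCBP4 (chromosome 3, positions 51957454 to 51967466), a protein that binds poly(C) RNA, measured 9.34, 9.98 and 10.9 CPM in MUTZ-1 control and 21.9, 22.8 and 19.9 CPM after knockdown, and 19.1, 14.7 and 19.7 CPM in SKM-1 control and 4.699, 4.905 and 5.46 CPM in SKM-1 knockdown. The knockdown libraries were all higher in MUTZ-1 and all lower in SKM-1, by 1.09 ± 0.099 and -1.82 ± 0.12, a difference of 2.92 ± 0.15 (adjusted p = 1.69e-46).

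ALDH2 is the mitochondrial enzyme that clears acetaldehyde. It rose in MUTZ-1, with 21.5, 19.95 and 20.8 CPM in control and 45.5, 41.05 and 43.9 CPM after knockdown, and fell in SKM-1, with 203, 209 and 200.5 and then 53.6, 51.5 and 52.1 CPM, so that SKM-1 stayed the higher line by a much smaller gap (difference 3.03 ± 0.070). GSN, which severs and caps actin filaments, rose in MUTZ-1, with 7.42, 8.66 and 8.54 CPM in control and 16.2, 17.6 and 15.5 CPM after knockdown, and fell in SKM-1, with 49.1, 45.4 and 45.5 and then 20.2, 17.2 and 18.5 CPM (difference 2.33 ± 0.12). EPN2, an adaptor of clathrin-mediated endocytosis, rose in MUTZ-1 (20.8 ± 1.17 to 43.3 ± 0.819 CPM) but fell in SKM-1 (52.3 ± 2.94 to 16.6 ± 1.197 CPM), a difference of 2.71 ± 0.095. SELENON, a selenoprotein of the endoplasmic reticulum, rose in MUTZ-1 (53.5 ± 0.954 to 105 ± 1.83 CPM) but fell in SKM-1 (364 ± 6.73 to 93.9 ± 2.197 CPM), a difference of 2.93 ± 0.050. These genes had no overlap between control and knockdown libraries in either line. YPEL3 rose in MUTZ-1 (23.2 ± 1.54 to 45.1 ± 2.84 CPM) but fell in SKM-1 (28.1 ± 1.66 to 6.32 ± 0.945 CPM), a difference of 3.11 ± 0.12. ZBED8 rose in MUTZ-1 (6.803 ± 0.645 to 13.2 ± 0.328 CPM) but fell in SKM-1 (13.2 ± 0.452 to 5.24 ± 0.848 CPM), a difference of 2.28 ± 0.17. For these 8 genes the highest adjusted p was 1.3e-12 in MUTZ-1, 5.84e-21 in SKM-1 and 1.72e-28 for the difference.

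**Figure D2:**
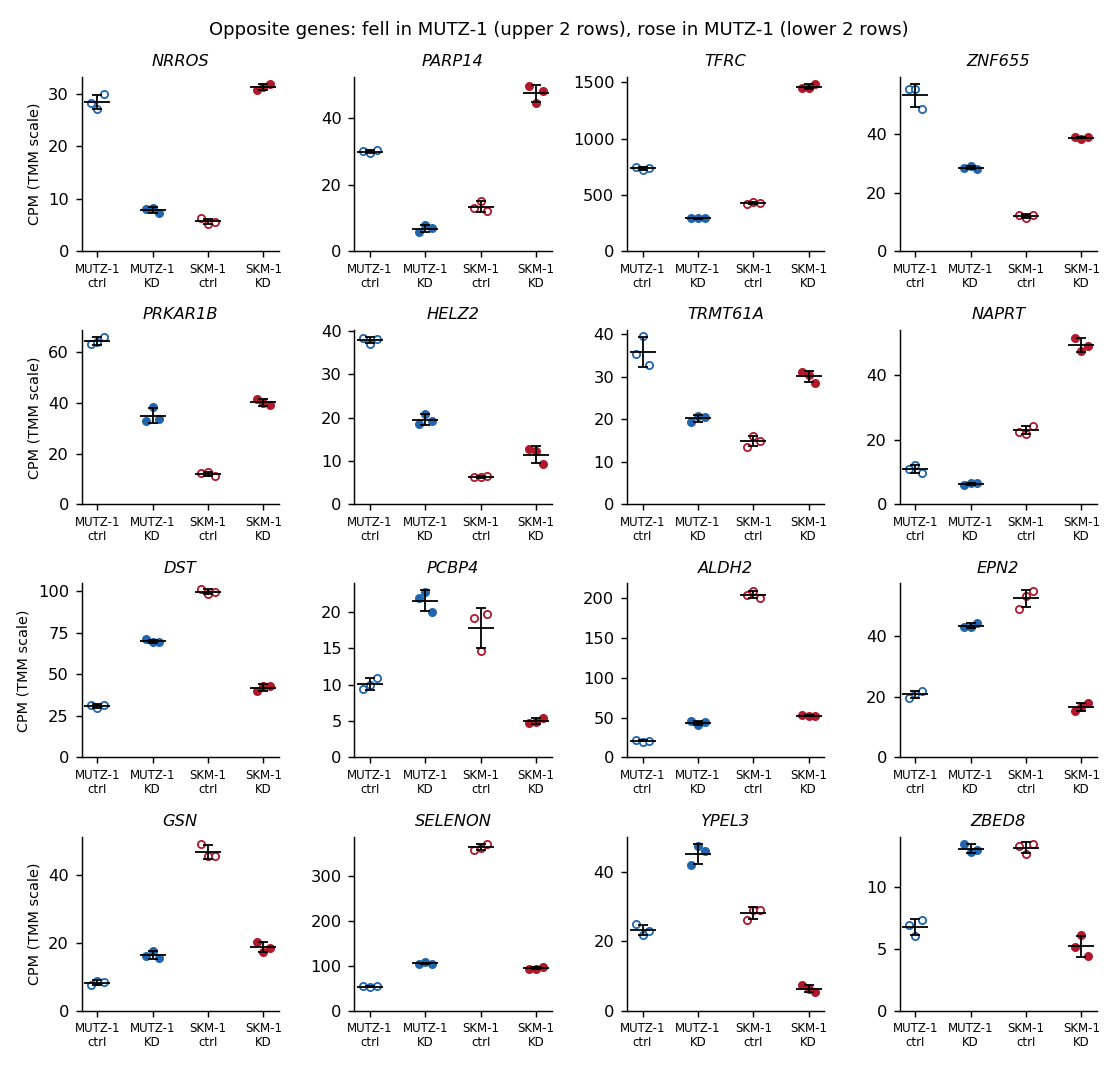
CPM per library, on a linear axis, of the 8 leading genes that fell in MUTZ-1 but rose in SKM-1 and the 8 that did the reverse, with 3 points for each of the 4 groups. In each panel the control and knockdown points of a line do not overlap, and the 2 lines move in opposite directions, as for NRROS (28.5 to 7.83 CPM in MUTZ-1, 5.69 to 31.3 CPM in SKM-1).

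The promoters of the 2 leading genes of each direction are printed here to show what their start regions hold. They come from RefSeq (GRCh38.p14), run 5' to 3' on the gene's strand from 250 bases before to 50 bases after the start, and capitals mark matches to a searched motif on either strand.
NRROS (chr3:196639444-196639743, plus strand): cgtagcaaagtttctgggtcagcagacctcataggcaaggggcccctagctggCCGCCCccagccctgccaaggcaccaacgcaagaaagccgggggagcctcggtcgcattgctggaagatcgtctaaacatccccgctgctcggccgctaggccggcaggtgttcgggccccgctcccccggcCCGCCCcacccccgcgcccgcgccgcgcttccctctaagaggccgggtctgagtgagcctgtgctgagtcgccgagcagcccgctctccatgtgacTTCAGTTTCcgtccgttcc
PARP14 (chr3:122680589-122680888, plus strand): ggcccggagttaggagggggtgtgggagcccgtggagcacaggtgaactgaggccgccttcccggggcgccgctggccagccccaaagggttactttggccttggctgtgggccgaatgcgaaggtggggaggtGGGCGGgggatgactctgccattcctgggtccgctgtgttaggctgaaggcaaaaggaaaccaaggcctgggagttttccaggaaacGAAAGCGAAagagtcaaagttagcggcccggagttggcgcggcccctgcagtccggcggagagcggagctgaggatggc
DST (chr6:56954781-56955080, minus strand): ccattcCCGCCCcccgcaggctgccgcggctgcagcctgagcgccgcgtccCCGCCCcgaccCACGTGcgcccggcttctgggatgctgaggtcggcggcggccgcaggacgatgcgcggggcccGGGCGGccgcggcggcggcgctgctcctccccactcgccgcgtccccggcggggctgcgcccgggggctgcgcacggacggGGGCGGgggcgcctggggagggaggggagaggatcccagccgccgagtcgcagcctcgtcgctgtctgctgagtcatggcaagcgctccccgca
PCBP4 (chr3:51967417-51967716, minus strand): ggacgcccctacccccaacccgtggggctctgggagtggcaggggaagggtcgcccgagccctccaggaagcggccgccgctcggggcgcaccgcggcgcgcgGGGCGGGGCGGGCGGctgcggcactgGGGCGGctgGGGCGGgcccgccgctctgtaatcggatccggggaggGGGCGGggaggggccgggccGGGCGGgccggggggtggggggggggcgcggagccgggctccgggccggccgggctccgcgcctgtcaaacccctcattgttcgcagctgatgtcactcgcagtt
The motifs searched, on both strands and counted also where they overlap, were the E-box CACGTG, read by MYC and related factors, CCAAT, the GC box GGGCGG, the ETS motif CCGGAAG, the GATA motif AGATAA and the interferon response core GAAANNGAA. NRROS and PARP14 each hold 1 match to the interferon response core, beside 2 and 1 GC boxes. DST holds 1 E-box and 4 GC boxes, and PCBP4 holds 7 GC boxes, some of which overlap. A match is a run of letters and not a bound site, and a motif without a match is only absent from this window.

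Promoters were matched for 7224 of the 8522 genes, of which 1595 fell in MUTZ-1 but rose in SKM-1 and 964 did the reverse. The ETS motif was in 24.3% of all, 28.9% and 18.4% of the promoters, in that order. The E-box was in 11.2% of all, 13.5% and 9.85%. The interferon response core was in 6.298% of all, 7.21% and 5.602%, and CCAAT in 38.5% of all, 40.1% and 37.9%. GC boxes were in 73.6% of all, 71.5% and 73.3% and the GATA motif in 4.14% of all, 3.51% and 4.36%. The widest gap between the opposite classes was that of the ETS motif. No test was run on these shares.

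Of the 8 genes that led the fall in MUTZ-1, NRROS and TFRC lie close together near the end of the long arm of chromosome 3, and with them a run of genes that fell in MUTZ-1. The stretch from LSG1 to the end of the chromosome was chosen after its values were seen, so its counts are a description. Of 26 genes there, 25 fell in MUTZ-1 and 1 rose, MELTF (0.22), with a median log2 change of -0.69. Before LSG1, 126 of 438 genes fell, 129 rose and the median was 0.0039. In SKM-1 the same 26 genes did not move as one, with 14 that fell and 9 that rose and a median of -0.17. Over running windows of 15 neighbouring genes on all chromosomes, MUTZ-1 medians ran from -0.27 to 0.27 once windows that reach this end are left out, and the lowest that reaches it was -0.72.

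LSG1, a GTPase of late ribosome maturation, fell in MUTZ-1 (from 142 to 77.04 CPM) but rose in SKM-1 (from 58.6 to 98.2 CPM). PCYT1A, which controls phosphatidylcholine synthesis, fell in MUTZ-1 (from 99.3 to 63.9 CPM) but rose in SKM-1 (from 79.5 to 114 CPM). Others fell in both lines, such as NCBP2, a cap-binding protein (from 174 to 106 CPM and from 148 to 119 CPM), and the scaffold DLG1 (from 267 to 206 CPM and from 177 to 80.2 CPM). SENP5, a SUMO protease, fell in MUTZ-1 (from 99.8 to 60.4 CPM) and was at 52.05 and 50.3 CPM in SKM-1, which was not called. The part of this position in the MUTZ-1 changes of NRROS and TFRC, and of PAK2, FBXO45, TNK2 and RPL35A below, was not tested.

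**Figure D3:**
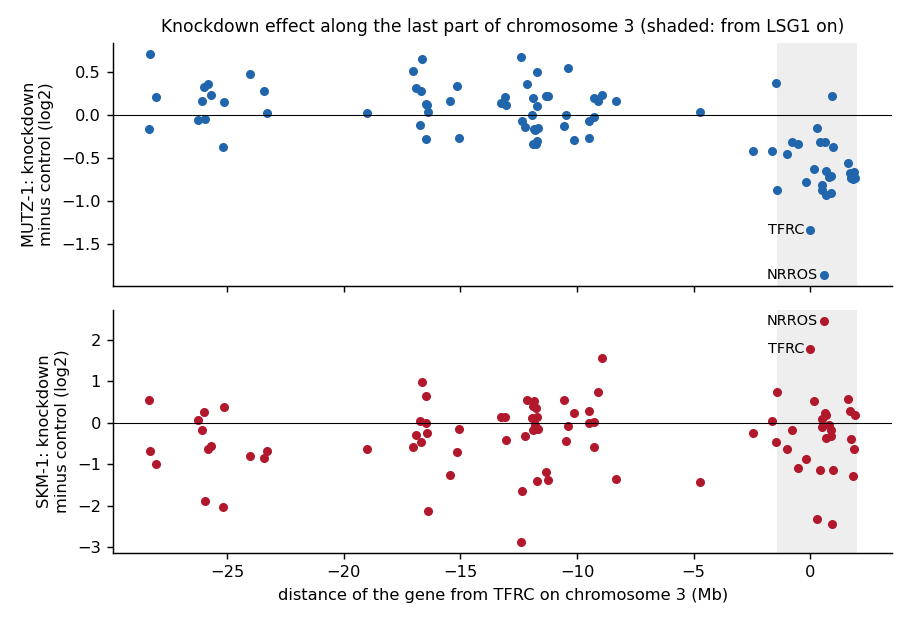
Log2 change after knockdown of the genes in the last part of chromosome 3 in MUTZ-1 and in SKM-1, plotted against distance in megabases from TFRC. In MUTZ-1 most of the 26 genes at the end sit below the rest, with MELTF (0.22) an exception, while in SKM-1 they spread to both sides. The MUTZ-1 median was -0.69 for the 26, against 0.0039 over all genes before them, most of which are not drawn.

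A gene was called specific to a line when it changed there by at least 1.5-fold, the difference was called, and the 95% interval of its change in the other line lay within 1.2-fold either way. Such responses were rare in MUTZ-1, with 10 rises (0.117%) and 8 falls (0.0939%). The fold limits were the same for both lines, whose spreads differ. From the 5th to the 95th percentile, MUTZ-1 changes (-0.37 to 0.43) stayed within 1.5-fold, and SKM-1 changes (-1.398 to 1.16) did not. The counts of the 2 lines are thus not on equal terms. OPTN, a receptor that brings cargo to autophagy, led the rises. Its libraries held 7.02, 6.87 and 6.73 CPM in MUTZ-1 control and 15.5, 15.1 and 14.9 CPM after knockdown, while SKM-1 held 26.9, 23.9 and 24.3 CPM in control and 27.4, 25.6 and 27.2 CPM after knockdown. MUTZ-1 groups were apart, and SKM-1 groups overlapped (changes 1.14 ± 0.10 and 0.096 ± 0.076, difference 1.04 ± 0.13). MAPRE3, which binds growing microtubule ends, had 7.303, 8.72 and 9.79 CPM in MUTZ-1 control and 16.1, 17.1 and 18.03 CPM in MUTZ-1 knockdown and 41.9, 41.9 and 39.8 CPM in SKM-1 control and 37.7, 38.6 and 38.9 CPM in SKM-1 knockdown (0.99 ± 0.093 and -0.10 ± 0.065). The other named rises were FGD6, an exchange factor of CDC42 (0.72 ± 0.040 in MUTZ-1), the lipid kinase PIP5K1B (0.69 ± 0.089) and SPECC1, a coiled-coil protein of the cytoskeleton (0.73 ± 0.084). Their SKM-1 changes lay between 0.0028 and 0.038. The count of 10 is a small one, and it rose to 16 without MUTZ-1 control replicate 2.

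Of the MUTZ-1 falls, TFCP2, a transcription factor, was the largest. It measured 12.002, 12.6 and 11.99 CPM in control and 4.98, 6.87 and 6.25 CPM after knockdown, and 68.7, 68.2 and 66.8 CPM in SKM-1 control and 71.2, 73.4 and 69.4 CPM in SKM-1 knockdown (changes -1.02 ± 0.10 and 0.072 ± 0.051, difference -1.09 ± 0.12). TRIM25, the ubiquitin ligase that acts on the RNA sensor RIG-I, measured 205, 206 and 196 CPM in MUTZ-1 control and 116, 118 and 123 CPM in MUTZ-1 knockdown and 153, 156 and 151 CPM in SKM-1 control and 133, 137 and 147 CPM in SKM-1 knockdown. Its SKM-1 change of -0.14 ± 0.032 was called and small, against -0.77 ± 0.032 in MUTZ-1. ARRDC3, an arrestin-like adaptor of receptor turnover, changed by -0.77 ± 0.063 in MUTZ-1. Its SKM-1 rise of 0.11 ± 0.054 was called and small (adjusted p = 0.0493, edgeR's quasi-likelihood test). PAK2, a kinase under RAC and CDC42, and FBXO45, part of a ubiquitin ligase, fell by 0.94 ± 0.024 and 0.87 ± 0.036 on the log2 scale in MUTZ-1 and rose by 0.18 ± 0.027 and 0.10 ± 0.036 in SKM-1, and both lie in the stretch of chromosome 3. The highest adjusted p of the difference was 2.4e-17 over the 5 falls and 4.77e-07 over the 5 rises. Among all MUTZ-1-specific genes, 4 of the 8 falls and 1 of the 10 rises were also opposite genes, with a called change the other way in SKM-1.

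SKM-1-specific responses were far more frequent, 948 rises (11.1%) and 677 falls (7.94%). PTPN7, a tyrosine phosphatase of blood cells that acts on MAP kinases, led the rises. In SKM-1 it went from 20.5, 17.5 and 19.4 CPM to 144, 161 and 151 CPM, and in MUTZ-1 it held 105, 107 and 107 CPM in control and 114, 114 and 103 CPM after knockdown (log2 change 2.99 ± 0.049 in SKM-1). ARHGDIB, an inhibitor of small GTPases found in blood cells, went from 10.3, 12.5 and 12.2 to 68.9, 71.9 and 66.1 CPM in SKM-1 and had 689.9, 698 and 703 CPM in MUTZ-1 control and 673, 685 and 663 CPM in MUTZ-1 knockdown. SKM-1 groups were far apart for both genes, and the MUTZ-1 changes were 0.057 ± 0.038 and -0.049 ± 0.022. ZNF22, a zinc finger protein, had no called change in MUTZ-1 (73.3 and 68.98 CPM) but rose in SKM-1 (11.8 to 72.6 CPM), a difference of -2.71 ± 0.078. MAP1A, a microtubule-associated protein, rose in MUTZ-1 (269 to 291 CPM) and rose in SKM-1 (36.95 to 211 CPM), a difference of -2.401 ± 0.046. MGST1, a membrane-bound glutathione transferase, had no called change in MUTZ-1 (80.95 and 79.9 CPM) but rose in SKM-1 (17.2 to 94.01 CPM), a difference of -2.47 ± 0.070. Of the 5 genes, ARHGDIB (adjusted p = 0.0484) and MAP1A had a called change in MUTZ-1, within the 1.2-fold margin.

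The named falls specific to SKM-1 were deeper than the named rises. CKAP4, an anchor of the endoplasmic reticulum to microtubules, went from 198, 201 and 202 CPM to 9.84, 7.54 and 8.13 CPM in SKM-1 and held 20.7, 23.7 and 20.4 CPM in MUTZ-1 control and 20.9, 21.0 and 20.8 CPM in MUTZ-1 knockdown. Its SKM-1 groups were apart by 23.6-fold, and its MUTZ-1 groups overlapped (changes -4.56 ± 0.058 and -0.047 ± 0.069). UCHL1, a ubiquitin hydrolase of neurons, fell in SKM-1 (345 to 13.8 CPM) and by less in MUTZ-1 (449.9 to 409 CPM). ENAH, which extends actin filaments, fell in SKM-1 (160.1 to 7.99 CPM) and rose in MUTZ-1 (94.98 to 105 CPM). Next were PHGDH, the first enzyme of serine synthesis (390.1 to 26.1 CPM in SKM-1, 481 and 495 in MUTZ-1), and CTBP2, a transcriptional corepressor (83.1 to 5.702 CPM in SKM-1, 51.996 and 50.6 in MUTZ-1). The highest adjusted p of the difference was 1.08e-98 over the 5 falls and 3.69e-86 over the 5 rises. Of the SKM-1-specific rises 278, and of the falls 112, were also opposite genes, since a change within the margin can still be called in MUTZ-1.

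The 4 most positive differences belonged to genes that fell deeply in SKM-1 and rose in MUTZ-1, and were picked after their values were seen. LRP1, a large endocytic receptor, had 284, 287 and 279 CPM in SKM-1 control and 7.33, 8.49 and 6.02 CPM in SKM-1 knockdown. In MUTZ-1 it rose from 20.3, 19.5 and 21.8 to 37.6, 37.7 and 37.1 CPM, which made 6.14 ± 0.087 the largest difference of the 8522 genes. GAA, the lysosomal enzyme that breaks down glycogen, rose in MUTZ-1 (14.8 to 21.3 CPM) but fell in SKM-1 (226 to 6.57 CPM), a difference of 5.63 ± 0.10. AXIN2, a target and inhibitor of Wnt signalling, rose in MUTZ-1 (5.95 to 7.48 CPM) but fell in SKM-1 (468 to 16.4 CPM), a difference of 5.17 ± 0.13. ABLIM1, an actin-binding protein, rose in MUTZ-1 (186 to 254 CPM) but fell in SKM-1 (139.6 to 5.85 CPM), a difference of 5.03 ± 0.069. At the other end, SLC38A5, an amino acid transporter, fell in MUTZ-1 (87.3 to 62.4 CPM) but rose in SKM-1 (35.7 to 216 CPM), a difference of -3.09 ± 0.058.

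Genes with like responses moved the same way in either line, with the 95% interval of the difference within 1.2-fold. There were 196 that rose (2.3%) and 227 that fell (2.66%), and 46 and 61 of them still had a called, small difference. TRIP10, a CDC42 effector that bends membranes, had 7.08, 6.75 and 7.69 CPM in MUTZ-1 control and 12.9, 13.6 and 13.1 CPM in MUTZ-1 knockdown and 45.8, 46.2 and 44.9 CPM in SKM-1 control and 82.3, 88.4 and 83.5 CPM in SKM-1 knockdown. Both lines rose by nearly the same step (0.87 ± 0.097 and 0.89 ± 0.053), and the interval of the difference ran from -0.25 to 0.21. The peptide transporter of lysosomes ABCB9, the Golgi mannosidase MAN1A1 and the elongation factor EEF1A2 also rose alike, by 0.85 and 0.86, 0.79 and 0.78, and 0.65 and 0.69 in MUTZ-1 and SKM-1. TNK2, a tyrosine kinase, fell from 215, 199 and 204 to 122, 124 and 114 CPM in MUTZ-1 and from 91.7, 94.7 and 93.5 to 50.3, 51.9 and 51.9 CPM in SKM-1. The changes were -0.78 ± 0.033 and -0.86 ± 0.042, and the interval of their difference ran from -0.025 to 0.19 (adjusted p = 0.17). ZKSCAN1, a zinc finger protein, changed by -0.53 and -0.57, and the ribosomal protein gene RPL35A, which has processed copies, by -0.66 and -0.63. Some of these like responses depend on the fit. The difference of ZKSCAN1 was called with chromosome medians removed (0.53, adjusted p = 1.62e-16), and at 0.17 with library totals and in both FPKM fits. That of MAN1A1 was called in 5 fits, with 0.39 when chromosome medians were removed, 0.14 with library totals and 0.088 without MUTZ-1 control replicate 3. That of TNK2, 0.081 as reported, was called in 7 fits, with 0.21 under library totals and 0.13 to 0.17 without any 1 of MUTZ-1 control replicates 1 and 3, MUTZ-1 knockdown replicate 3 and SKM-1 knockdown replicate 2. ABCB9 (-0.24 with the gene length trend removed), EEF1A2 (-0.19) and RPL35A (-0.071, both with chromosome medians removed) were each called in 1 fit. HMGCS1, an early enzyme of cholesterol synthesis, fell by 0.85 ± 0.029 and 0.68 ± 0.026 on the log2 scale with a called difference of -0.17 ± 0.039, which turned to 0.068 with chromosome medians removed (adjusted p = 0.13) and was not called with library totals (-0.044, adjusted p = 0.319) or in the FPKM fits (-0.043 and -0.030).

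The gene lists were read by counts and medians, beside all 8522 genes, where 49% were more negative and 35.3% more positive in MUTZ-1, 22.1% fell in MUTZ-1 but rose in SKM-1, 13.3% did the reverse, and the medians were -0.021 in MUTZ-1, 0.11 in SKM-1 and -0.14 for the difference. No list was tested as a set. Where nothing else is said, the sign of a list's median difference was the same in 21 of 21 alternative fits.

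Genes that build ribosomes, splice RNA, fold proteins and degrade them were the most one-sided. In the list of ribosome assembly and RNA polymerase I, all 44 members were more negative in MUTZ-1, and 41 fell there and rose in SKM-1. The medians were -0.38 in MUTZ-1, 0.63 in SKM-1 and -0.99 for the difference. UTP15, of the complex that processes the 18S precursor, had 48.3, 50.8 and 51.1 CPM in MUTZ-1 control and 36.8, 32.96 and 35.7 CPM after knockdown, and 18.4, 21.3 and 19.2 CPM in SKM-1 control and 54.95, 57.1 and 62.4 CPM in SKM-1 knockdown. Its groups were apart in both lines and it had the most negative difference of the list (-2.07 ± 0.086). POLR1C, a subunit of RNA polymerases I and III, fell in MUTZ-1 (55.6 to 42.9 CPM) but rose in SKM-1 (32.7 to 96.7 CPM), a difference of -1.94 ± 0.071. MRTO4, which assembles the ribosomal stalk, fell in MUTZ-1 (121 to 83.9 CPM) but rose in SKM-1 (65.3 to 169 CPM), a difference of -1.91 ± 0.052. The least changed was FBL, the methyltransferase of box C/D particles (difference -0.34 ± 0.033), and with chromosome medians removed its difference was -0.0029 (adjusted p = 0.982). The highest adjusted p of a difference among these genes was 5.68e-20.

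Of 32 splicing factors, 29 were more negative in MUTZ-1 and 3 more positive, and 28 were opposite genes that fell in MUTZ-1 but rose in SKM-1. The medians were -0.23 in MUTZ-1, 0.45 in SKM-1 and -0.66 for the difference. SF3A3, of the U2 particle, fell in MUTZ-1 (217 ± 1.91 to 182 ± 2.54 CPM) but rose in SKM-1 (147 ± 2.62 to 348 ± 11.9 CPM), a difference of -1.502 ± 0.040. HNRNPF, which binds G-runs, fell in MUTZ-1 (360.2 ± 7.68 to 301 ± 3.796 CPM) but rose in SKM-1 (258 ± 7.401 to 591 ± 9.93 CPM), a difference of -1.45 ± 0.034. Of the 3 that were more positive, HNRNPA1, which has processed copies, had a difference of 0.37 ± 0.025 and SRSF5 of 0.15 ± 0.043. The sign of SRSF5 turned to -0.091 with chromosome medians removed (adjusted p = 0.0619).

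All 31 proteasome genes were more negative in MUTZ-1, 29 of them opposite genes. The medians were -0.22 in MUTZ-1, 0.57 in SKM-1 and -0.86 for the difference. PSMC2, an ATPase of the regulatory particle, had 259, 258 and 264 CPM in MUTZ-1 control and 215, 212 and 215 CPM in MUTZ-1 knockdown and 96.6, 98.7 and 94.3 CPM in SKM-1 control and 243, 239 and 239 CPM in SKM-1 knockdown. Its libraries did not overlap in either line (difference -1.596 ± 0.041). The catalytic subunit gene PSMB4 had the smallest difference (-0.16 ± 0.035), which was 0.070 with chromosome medians removed (adjusted p = 0.0775) and lost its call in 4 other fits, with -0.057 when the gene length trend was removed and -0.035 with library totals and in both FPKM fits (adjusted p 0.116 to 0.372). Of 28 cytosolic chaperones, 26 were more negative and 0 more positive, and 23 fell in MUTZ-1 but rose in SKM-1, with medians of -0.26 in MUTZ-1, 0.73 in SKM-1 and -1.05 for the difference. HSPA8, the constitutive HSP70, fell in MUTZ-1 (2757 to 1867 CPM) but rose in SKM-1 (1338 to 4168 CPM), a difference of -2.202 ± 0.024. DNAJA1, its J-domain partner, fell in MUTZ-1 (377 to 277 CPM) but rose in SKM-1 (147 to 351 CPM), a difference of -1.695 ± 0.036. CCT8, a subunit of the folding ring TRiC, fell in MUTZ-1 (493 to 430.3 CPM) but rose in SKM-1 (324 to 814 CPM), a difference of -1.53 ± 0.031. The small heat shock gene HSPB1 was under 5 CPM in a group and was left out.

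Ribosomal protein genes went the other way from the genes that assemble ribosomes. Of 73 cytosolic ribosomal protein genes (of 74 listed), 48 were more positive and 17 more negative in MUTZ-1, and 30 rose in MUTZ-1 and fell in SKM-1 while 2 did the reverse. The medians were 0.088 in MUTZ-1, -0.20 in SKM-1 and 0.29 for the difference. RPL34, of the large subunit, rose in MUTZ-1 (215 ± 11.2 to 231 ± 1.46 CPM) but fell in SKM-1 (455 ± 7.93 to 212 ± 8.69 CPM), a difference of 1.205 ± 0.038. RPL39, a short protein near the exit tunnel, had no called change in MUTZ-1 (360.5 ± 14.6 and 358 ± 13.4 CPM) but fell in SKM-1 (654 ± 5.899 to 272 ± 4.57 CPM), a difference of 1.26 ± 0.034. RPL34, RPL39 and RPL21 (difference 1.24 ± 0.029) have processed copies in the genome, as have FTL, HSPA8 and CYCS. How reads with several matches were counted is not given in the sources used here, so values of such genes are uncertain. The 17 more negative genes became 7 with library totals, with chromosome medians removed and in the FPKM fits, and 10 or 11 without any 1 of MUTZ-1 control replicate 2, MUTZ-1 knockdown replicates 2 and 3 and SKM-1 knockdown replicate 2, and the 30 opposite genes became 46 with library totals.

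Translation initiation factors, 33 genes, were more negative in MUTZ-1 for 26 and more positive for 6, with 18 and 4 opposite genes in the 2 directions and medians of -0.15 in MUTZ-1, 0.36 in SKM-1 and -0.49 for the difference. EIF5, which triggers GTP hydrolysis at the start codon, fell in MUTZ-1 (383 to 297 CPM) but rose in SKM-1 (187 to 364 CPM), a difference of -1.33 ± 0.035. EIF4B, a helper of the mRNA helicase, rose in MUTZ-1 (1020.0 to 1299.6 CPM) but fell in SKM-1 (1420.2 to 839.7 CPM), a difference of 1.11 ± 0.026. Of 22 aminoacyl-tRNA synthetase genes, 16 were more negative and 5 more positive, and 12 fell in MUTZ-1 but rose in SKM-1, with medians of -0.11 in MUTZ-1, 0.32 in SKM-1 and -0.52 for the difference. VARS1, the valine enzyme, fell in MUTZ-1 (239.9 to 193 CPM) but rose in SKM-1 (290.2 to 687 CPM), a difference of -1.56 ± 0.035. AARS1, the alanine enzyme, rose in MUTZ-1 (460.4 to 524 CPM) but fell in SKM-1 (693 to 482 CPM), a difference of 0.71 ± 0.030.

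The stress list held both signs. Of 22 members (of 24), 15 were more positive and 7 more negative in MUTZ-1, with 5 opposite genes each way, 6 that fell in both lines and medians of -0.096 in MUTZ-1, -0.42 in SKM-1 and 0.35 for the difference. SLC7A11, the cystine transporter driven by ATF4, had no called change in MUTZ-1 (29.6 ± 1.402 and 28.5 ± 1.57 CPM) but fell in SKM-1 (106 ± 2.18 to 20.8 ± 0.555 CPM), a difference of 2.300 ± 0.085. DDIT4, an inhibitor of mTORC1, rose in MUTZ-1 (28.7 ± 0.664 to 40.2 ± 2.04 CPM) but fell in SKM-1 (220.0 ± 1.32 to 72.1 ± 0.317 CPM), a difference of 2.095 ± 0.066. HERPUD1, of the degradation pathway of the endoplasmic reticulum, overlapped between control and knockdown in MUTZ-1 (148 and 157 CPM) but fell in SKM-1 (146 to 52.4 CPM), a difference of 1.57 ± 0.051. The 2 most negative members were SDF2L1 and CALR. SDF2L1, a stress-induced chaperone cofactor, had no called change in MUTZ-1 (39.3 ± 2.9999 and 37.2 ± 0.199 CPM) but rose in SKM-1 (53.8 ± 1.12 to 271 ± 1.11 CPM), a difference of -2.41 ± 0.065. CALR, a lectin chaperone, fell in MUTZ-1 (882 ± 22.97 to 765 ± 13.9 CPM) but rose in SKM-1 (505 ± 1.62 to 1337 ± 24.04 CPM), a difference of -1.61 ± 0.028. The highest adjusted p of a difference among these genes was 5.83e-69.

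Of 40 DNA replication genes, 31 were more negative and 5 more positive in MUTZ-1. The medians were -0.029 in MUTZ-1, 0.49 in SKM-1 and -0.53 for the difference, that is, MUTZ-1 hardly moved (its median kept its sign in 16 of 21 fits) and 14 were opposite genes, or 9 in the FPKM fits. The 5 more positive genes became 8 without MUTZ-1 knockdown replicate 2, with library totals, with chromosome medians removed and in the FPKM fits. CDC45, of the replicative helicase, fell in MUTZ-1 (82.9 to 67.1 CPM) but rose in SKM-1 (148 to 415 CPM), a difference of -1.795 ± 0.048. ORC1, which marks origins, fell in MUTZ-1 (85.03 to 60.1 CPM) but rose in SKM-1 (62.1 to 133 CPM), a difference of -1.59 ± 0.058. Of 39 mitosis genes (of 40), 25 were more negative and 9 more positive, with 13 and 2 opposite genes, medians of -0.12 in MUTZ-1, 0.065 in SKM-1 and -0.23 for the difference, and a SKM-1 median whose sign held in 18 of 21 fits. CDC20, which activates the anaphase-promoting complex, fell in MUTZ-1 (190.0 to 158 CPM) but rose in SKM-1 (119 to 199 CPM), a difference of -0.997 ± 0.043. CENPE, a kinetochore motor, rose in MUTZ-1 (122 to 148 CPM) but fell in SKM-1 (128 to 93.1 CPM), a difference of 0.73 ± 0.070. Of 24 nucleotide synthesis genes, 20 were more negative and 4 more positive, 13 of them fell in MUTZ-1 but rose in SKM-1, and the medians were -0.13 in MUTZ-1, 0.38 in SKM-1 and -0.56 for the difference. GART, which acts in purine synthesis, fell in MUTZ-1 (277 to 266 CPM) but rose in SKM-1 (236 to 564 CPM), a difference of -1.32 ± 0.034.

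Of 70 respiratory chain genes, 49 were more negative and 11 more positive in MUTZ-1, with 20 and 5 opposite genes and medians of -0.055 in MUTZ-1, 0.29 in SKM-1 and -0.36 for the difference. The 20 opposite genes became 11 or 12 without any 1 of MUTZ-1 control replicate 1 and MUTZ-1 knockdown replicates 1 and 3, 13 with chromosome medians removed and 11 with library totals, and the FPKM fits gave 9 and 8 opposite genes in the 2 directions. ATP5PF, of the stalk of ATP synthase, had no called change in MUTZ-1 (118 and 119 CPM) but rose in SKM-1 (69.7 to 186 CPM), a difference of -1.398 ± 0.051. Of 22 heme and iron genes (of 26), 17 were more negative and 3 more positive, with 6 and 1 opposite genes and medians of -0.011 in MUTZ-1, 0.48 in SKM-1 and -0.57 for the difference. Beside TFRC, FTL, the ferritin light chain that stores iron, fell in MUTZ-1 (436 ± 21.8 to 395 ± 9.86 CPM) but rose in SKM-1 (1169 ± 8.198 to 3363 ± 79.02 CPM), a difference of -1.67 ± 0.032. The MUTZ-1 median of this list kept its sign in 7 of 21 fits, so it has no settled direction there. SKM-1 erythroid markers, as summed above, rose with this list, and their part in it was not tested.

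The 5 CPM floor removed most interferon genes, 41 of 42 being tested and 13 being kept. Of the 13, 11 were more negative and 2 more positive in MUTZ-1, 6 fell in MUTZ-1 but rose in SKM-1, and 4 fell in both lines, with medians of -0.64 in MUTZ-1, 0.33 in SKM-1 and -1.23 for the difference. ISG15, a ubiquitin-like modifier, had 36.6, 38.9 and 30.2 CPM in MUTZ-1 control and 7.21, 6.62 and 5.18 CPM after knockdown, and 6.29, 5.21 and 6.38 CPM in SKM-1 control and 8.52, 8.19 and 7.32 CPM in SKM-1 knockdown. The groups were apart in both lines, far in MUTZ-1 and by little in SKM-1 (difference -2.903 ± 0.17). BST2, which tethers virus particles, fell in MUTZ-1 (161 ± 3.88 to 99.8 ± 2.65 CPM) but rose in SKM-1 (39.1 ± 0.987 to 142 ± 3.75 CPM), a difference of -2.55 ± 0.054. IFIH1, the RNA sensor MDA5, fell in MUTZ-1 (22.01 ± 1.07 to 15.6 ± 1.16 CPM) and fell in SKM-1 (27.7 ± 1.403 to 5.46 ± 0.4504 CPM), a difference of 1.85 ± 0.13. STAT2 had a difference of 0.16 ± 0.064, which was -0.054 with chromosome medians removed (adjusted p = 0.469), 0.046 with the gene length trend removed (adjusted p = 0.534) and 0.13 without SKM-1 control replicate 2 (adjusted p = 0.0777).

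Of 10 kept genes of MHC class I and peptide loading (of 17), 8 were more negative (5 with chromosome medians removed) and 1 more positive in MUTZ-1, 6 were opposite and the medians were -0.22 in MUTZ-1, 0.16 in SKM-1 and -0.37 for the difference. TAP2, a chain of the peptide transporter, fell in MUTZ-1 (167 to 115 CPM) but rose in SKM-1 (43.96 to 88.01 CPM), a difference of -1.53 ± 0.055. The SKM-1 median of the list kept its sign in 20 of 21 fits.

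The shared fall of cholesterol genes was larger than their difference between the lines. Of 26, 16 fell in both, 4 fell in MUTZ-1 but rose in SKM-1, 2 did the reverse, and 11 were more negative and 11 more positive, with medians of -0.42 in MUTZ-1, -0.47 in SKM-1 and -0.072 for the difference. MSMO1, a sterol C4 oxidase, fell in MUTZ-1 (69.97 ± 3.35 to 54.5 ± 0.6204 CPM) and fell in SKM-1 (115 ± 3.03 to 25.7 ± 1.16 CPM), a difference of 1.81 ± 0.069. SREBF2, the factor that drives the pathway, rose in MUTZ-1 (451 ± 7.07 to 484 ± 8.76 CPM) but fell in SKM-1 (526 ± 9.16 to 209 ± 2.74 CPM), a difference of 1.43 ± 0.033. The median difference kept its sign in 15 of 21 fits and has no settled direction.

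Glycolysis genes, 19 of 23 kept, were split 8 to 8, and 9 fell in both lines. Their medians were -0.13 in MUTZ-1, -0.22 in SKM-1 and -0.019 for the difference, and the last kept its sign in 7 of 21 fits. HK1, the hexokinase of most tissues, rose in MUTZ-1 (64.01 ± 0.141 to 74.5 ± 1.57 CPM) and rose in SKM-1 (261 ± 7.51 to 1146 ± 6.26 CPM), a difference of -1.92 ± 0.044. PFKM, the muscle phosphofructokinase, had no called change in MUTZ-1 (186 ± 6.78 and 186 ± 3.64 CPM) but fell in SKM-1 (273 ± 6.44 to 85.4 ± 1.57 CPM), a difference of 1.68 ± 0.044. Of 14 serine and one-carbon genes (of 15), 5 were more negative and 6 more positive, 8 were specific to SKM-1, and the medians were -0.069 in MUTZ-1, -0.19 in SKM-1 and 0.037 for the difference, the last with the same sign in 20 of 21 fits. Next to PHGDH, PSAT1, which follows it in the pathway, fell in MUTZ-1 (186 ± 3.602 to 169 ± 0.961 CPM) and fell in SKM-1 (266 ± 5.07 to 74.99 ± 0.347 CPM), a difference of 1.69 ± 0.044.

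Of 20 genes of the BCL2 family and caspases (of 28), 8 were more negative and 7 more positive, with medians of 0.033 in MUTZ-1, 0.17 in SKM-1 and -0.038 for the difference and a sign of the last held in 13 of 21 fits. MCL1, which keeps cells from apoptosis, rose in MUTZ-1 (414 to 430.0 CPM) but fell in SKM-1 (969.8 to 388 CPM), a difference of 1.38 ± 0.031. CYCS, cytochrome c, fell in MUTZ-1 (493 to 374 CPM) but rose in SKM-1 (264 to 448 CPM), a difference of -1.16 ± 0.033.

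In the MYC network, 15 of 18 genes were kept, 7 more negative and 6 more positive, with 5 that rose in MUTZ-1 and fell in SKM-1 and 2 that did the reverse. The medians were 0.051 in MUTZ-1, 0.30 in SKM-1 and -0.15 for the difference, with the MUTZ-1 sign kept in 20 of 21 fits. MYC had 393, 410.4 and 398 CPM in MUTZ-1 control and 410.1, 418 and 424 CPM in MUTZ-1 knockdown and 2104, 2129 and 2188 CPM in SKM-1 control and 459.7, 472 and 465 CPM in SKM-1 knockdown. It fell in SKM-1 (-2.201 ± 0.020), and in MUTZ-1 control and knockdown libraries overlapped (0.059 ± 0.022). MXI1, MXD3 and MXD4, which pair with MAX and oppose MYC, had differences of the same sign. MXI1 rose in MUTZ-1 (27.5 to 39.2 CPM) but fell in SKM-1 (74.4 to 24.4 CPM), a difference of 2.12 ± 0.084. MXD3 rose in MUTZ-1 (18.7 to 27.3 CPM) but fell in SKM-1 (18.3 to 5.79 CPM), a difference of 2.204 ± 0.13. MXD4 rose in MUTZ-1 (43.5 to 53.6 CPM) but fell in SKM-1 (76.6 to 25.6 CPM), a difference of 1.88 ± 0.076. On the other side, MLX, which pairs with the glucose-sensing members, fell in MUTZ-1 (74.2 to 58.95 CPM) but rose in SKM-1 (73.1 to 109 CPM), a difference of -0.91 ± 0.060.

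Of 43 kept actin genes (of 48), 32 were more negative and 10 more positive in MUTZ-1, 17 fell in MUTZ-1 but rose in SKM-1 (11 in the FPKM fits), and 15 were specific to SKM-1, with medians of -0.055 in MUTZ-1, 0.44 in SKM-1 and -0.53 for the difference. HCLS1, a cortactin-like protein of blood cells, had no called change in MUTZ-1 (251 ± 3.88 and 252 ± 6.903 CPM) but rose in SKM-1 (7.35 ± 0.303 to 28.6 ± 1.08 CPM), a difference of -1.96 ± 0.083. MSN, which links actin to the membrane, fell in MUTZ-1 (371 ± 2.06 to 322 ± 4.12 CPM) but rose in SKM-1 (291 ± 3.81 to 888 ± 4.38 CPM), a difference of -1.82 ± 0.032. GSN, above, and CFL2, a filament-cutting cofilin (2.31 ± 0.12), had the most positive differences. Of 39 lysosome genes (of 44), 20 were more negative and 16 more positive, with 7 and 5 opposite genes and medians of -0.014 in MUTZ-1, 0.10 in SKM-1 and -0.15 for the difference. The MUTZ-1 median kept its sign in 10 of 21 fits, and the 7 opposite genes became 4 without MUTZ-1 control replicate 2, 4 in the FPKM fits and 3 with library totals. GAA was the most positive of them. At the other end, CTSZ, a cathepsin, had no called change in MUTZ-1 (153 ± 1.95 and 147 ± 3.38 CPM) but rose in SKM-1 (42.9 ± 0.488 to 163 ± 2.97 CPM), a difference of -1.997 ± 0.051.

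Genes that are mutated in myelodysplasia had no common direction. Of 30 (of 32), 12 were more negative and 15 more positive, with 7 opposite genes each way and medians of -0.049 in MUTZ-1, -0.099 in SKM-1 and 0.17 for the difference, signs that held in 19 of 21 fits for SKM-1 and 20 of 21 for the difference. RUNX1, the blood transcription factor, fell in MUTZ-1 (70.4 ± 5.44 to 55.7 ± 0.9204 CPM) but rose in SKM-1 (32.5 ± 1.04 to 54.6 ± 2.35 CPM), a difference of -1.09 ± 0.072. SRSF2, a splicing factor, fell in MUTZ-1 (508 ± 5.27 to 417 ± 3.66 CPM) but rose in SKM-1 (252 ± 8.21 to 435 ± 5.13 CPM), a difference of -1.07 ± 0.033. DNMT3A, a DNA methyltransferase, rose in MUTZ-1 (20.7 ± 0.863 to 28.6 ± 0.948 CPM) but fell in SKM-1 (45.8 ± 0.642 to 22.9 ± 1.11 CPM), a difference of 1.47 ± 0.097. TET2, which oxidises methylcytosine, had no called change in MUTZ-1 (38.4 ± 1.34 and 38.9 ± 2.97 CPM) but fell in SKM-1 (84.5 ± 1.54 to 31.4 ± 2.08 CPM), a difference of 1.44 ± 0.078. RUNX1 and SRSF2 were thus more negative, and the methylation genes DNMT3A and TET2 more positive, in MUTZ-1.

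Among the 21 other genes of cleavage and polyadenylation, 13 were more negative and 6 more positive in MUTZ-1, with 6 and 1 opposite genes and medians of -0.073 in MUTZ-1, 0.21 in SKM-1 and -0.33 for the difference. CLP1, of cleavage factor IIm, fell in MUTZ-1 (24.1 ± 0.804 to 19.5 ± 1.096 CPM) but rose in SKM-1 (12.5 ± 0.867 to 28.6 ± 0.162 CPM), a difference of -1.501 ± 0.11. SSU72, a phosphatase of the RNA polymerase II tail, fell in MUTZ-1 (198 ± 3.81 to 161 ± 2.58 CPM) but rose in SKM-1 (82.1 ± 4.17 to 146 ± 0.787 CPM), a difference of -1.13 ± 0.047. PPP1CB, a catalytic subunit of protein phosphatase 1, had no called change in MUTZ-1 (186 and 181 CPM) but fell in SKM-1 (228 to 132 CPM), a difference of 0.75 ± 0.042. WDR33, which reads the AAUAAA signal, had a difference of 0.50 ± 0.045, and with a trend on gene length removed the value was -0.18 (adjusted p = 0.000147). The 3 CFIm subunits, given at the start, had a median difference of 0.034, whose sign held in 19 of 21 fits.

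**Figure D4:**
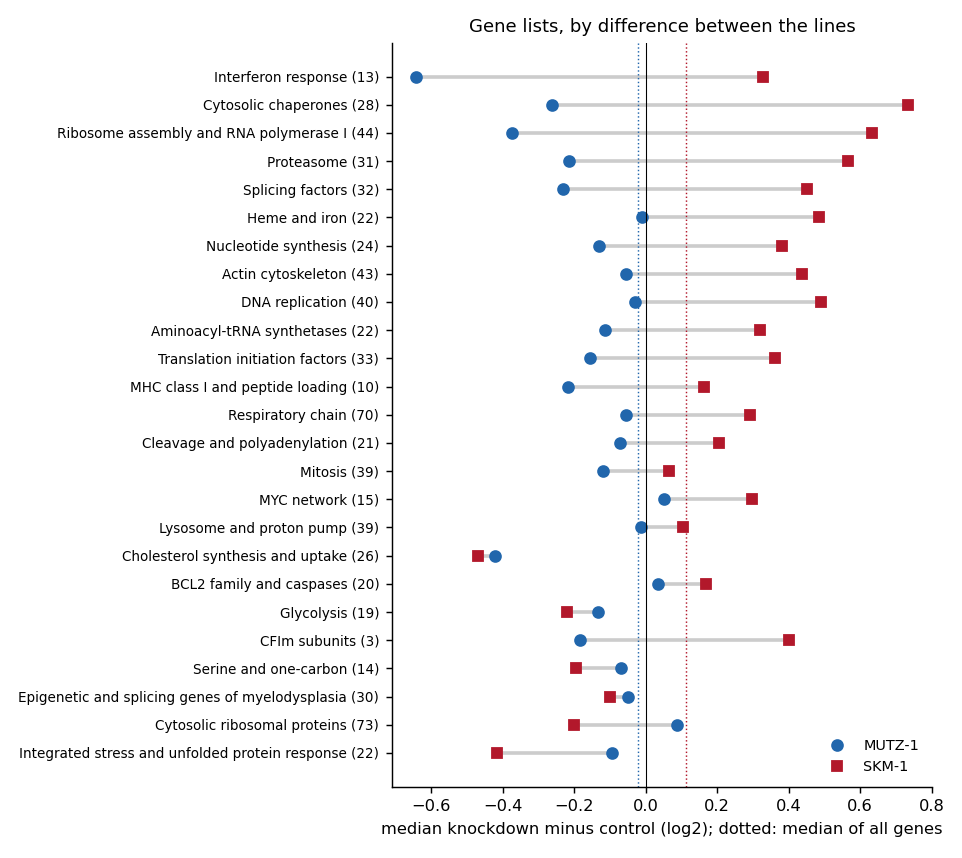
Median log2 change of the kept members of each of 25 gene lists in MUTZ-1 and in SKM-1, with all 8522 genes for comparison (-0.021 and 0.11). Ribosome assembly, proteasome, chaperone and splicing lists sit below 0 in MUTZ-1 and above 0 in SKM-1, ribosomal protein genes the reverse, and cholesterol genes below 0 in both.

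SKM-1 changes also differed by chromosome, which was seen in the data and not planned for. Chromosome medians lay between -0.056 (chromosome 20) and 0.0076 (chromosome 6) in MUTZ-1, and between -0.91 (chromosome 13) and 0.60 (chromosome 21) in SKM-1. On chromosome 13, 122 of 144 genes were more positive in MUTZ-1 and 12 more negative. Chromosome 21 had 58 of 81 more negative and 14 more positive. On the X chromosome the SKM-1 median was -0.38, on chromosome 7 0.46 and on chromosome 6 0.42. Running medians of 15 genes in SKM-1 reached from -1.68 to 1.203. The SKM-1 values of genes on these chromosomes, such as ZNF655 and PRKAR1B on chromosome 7 and DST on chromosome 6, stand beside these medians, and DST fell against the median of its chromosome. For most members of the gene lists the chromosome is not given beside the values above. Their SKM-1 changes were thus not read against the median of their chromosome. DNA copy number was not measured, and the part of chromosomal position in the differences was not tested. Removing chromosome medians left the count of opposite genes within 1.5 times, and the sign of the difference of the leading opposite genes as it was. For single genes only the difference is given in that fit, not the change in each line. A median per whole chromosome does not remove shifts of a part of it, such as the end of chromosome 3.

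The difference moved with gene length as well, taken as the ratio of counts to FPKM gives it. With the genes cut by length into 5 groups of equal size, the median differences from the shortest to the longest were -0.31, -0.26, -0.17, -0.080 and 0.13 (Spearman's rho 0.19 over 8522 genes, a description).

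**Figure D5:**
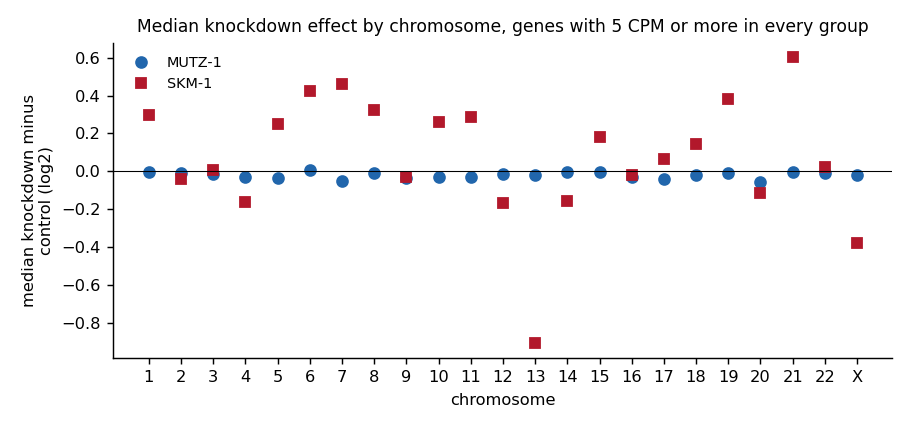
Median log2 change per chromosome in MUTZ-1 and SKM-1, over the 8522 genes. MUTZ-1 medians stay within -0.056 and 0.0076, and SKM-1 medians spread from -0.91 on chromosome 13 to 0.60 on chromosome 21.

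The floor of 5 CPM sets which genes could be compared. Just inside it were MYORG (lowest group mean 5.00 CPM) and TMEM150A (5.01 CPM), and just outside ASTN2 (4.97 CPM) and GJC1 (4.997 CPM). GJC1, a connexin, was left out through its SKM-1 knockdown group alone, and its difference was 4.799 with 84.1 and 95.1 CPM in MUTZ-1 and 123 CPM in SKM-1 control. In all, 5103 tested genes were under the floor in at least 1 group, and 2372 of them had 5 CPM or more on average over the groups. Of those, 1031 were lowest in a SKM-1 group and 1341 in a MUTZ-1 group. Genes under the floor in 1 of the lines, such as many interferon genes, HLA-B and most lineage markers, are thus not in any of the counts above.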

How the data were processed

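Polyadenylated RNA was sequenced with a stranded TruSeq kit after TRIzol extraction, per the labels' protocols. The authors deposited read counts per gene and, for the same libraries, FPKM values. Per the submitters' processing notes, reads passed through fastp, HISAT2 and HTSeq on GRCh38. The annotation, strand setting and handling of multiply matching reads were not given in the sources used here. Whether replicates are separate cultures is not stated in the labels, so the p-values rest on a spread between samples that may be only technical.

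The deposited counts were analysed with edgeR 4.0.16 in R 4.3.3. The filterByExpr function kept 13625 of 17518 genes, libraries were scaled by TMM, and 1 quasi-likelihood fit with a mean per group (8 residual degrees of freedom) gave the change in each line and the difference, adjusted over all 13625 genes by the Benjamini-Hochberg method. A call is an adjusted p under 0.05. SE is the size of the log2 change divided by the square root of F, and CPM values are on the TMM scale, as mean ± SD over 3 libraries where not given per library. Coordinates (8513 of 8522 genes matched) and promoters (7224) were taken from RefSeq by symbol. The scripts were checked on counts with known answers. The deposited FPKM served for 2 alternatives with limma 3.58.1.

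Named genes are those with no overlap between control and knockdown in the lines said to change. They are the 8 opposite genes per direction with the largest smaller change, the 5 line-specific genes per line and direction with the largest change, the 4 like genes per direction with the largest smaller change, the CFIm subunits, and members of 26 gene lists. Any member of a list could be named. The 2 members with the most positive and the 2 with the most negative difference are not all given, and some lists show 1 side only. MYC and HERPUD1 are named although their MUTZ-1 libraries overlap, and no change is stated for them there. Members and lists were chosen with earlier results of these data known. Results of 1 of these lists and of some single genes are not reported here. Alternatives were other scalings (DESeq2 1.42.0 size factors, library totals), the DESeq2 Wald test, no count filter, log2(FPKM + 0.1) and log2(FPKM + 1), a gene length trend or chromosome medians removed, a replicate block, each library left out, other margins, a mean of 5 CPM over all libraries and a test against a 1.2-fold difference.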

Additional observations from a re-analysis of the deposited data

Results flagged for a closer look

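The knockdown effects of the 2 lines differed by the test of the difference itself for 4172 genes that were more negative and 3012 that were more positive in MUTZ-1, out of 8522. The named opposite genes are among them. Of those that fell in MUTZ-1 but rose in SKM-1, the log2 differences were NRROS (-4.32), PARP14 (-3.97), TFRC (-3.12), ZNF655 (-2.60), PRKAR1B (-2.63), HELZ2 (-1.82), TRMT61A (-1.85) and NAPRT (-1.91). Of those that rose in MUTZ-1 and fell in SKM-1, they were DST (2.42), PCBP4 (2.92), ALDH2 (3.03), EPN2 (2.71), GSN (2.33), SELENON (2.93), YPEL3 (3.11) and ZBED8 (2.28).

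Outside the genes compared in the report, 5103 tested genes were under 5 CPM in at least 1 group, and for 2622 of them the difference was called, 2367 of these at 2-fold or more. None of these genes was read as opposite or line-specific. A gene near 0 in a line gives a difference set by the other line alone. That does not hold for all of them, since the floor was applied to each group. GJC1 was left out with 84.1 and 95.1 CPM in MUTZ-1 control and knockdown and 123 and 4.997 CPM in SKM-1 control and knockdown. Deep falls in 1 line can thus be missing from the line-specific counts.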

How the results depend on the processing

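With 3 libraries per group and 1 hairpin per line, p-values hold for these cultures and this hairpin, and genes under 5 CPM in a group were not compared. The counts of called differences and of opposite genes stayed within 1.5 times the reported ones in every alternative of scaling, test, filter and left-out library. DESeq2's Wald test gave 3991 more negative and 3017 more positive differences, with 1570 and 1149 opposite genes. Library totals gave 3569 and 3502, with 1412 and 1530. Against a difference of 1.2-fold, edgeR's glmTreat called 3265 and 2364. With both changes at 1.5-fold or more, 40 opposite genes fell and 69 rose in MUTZ-1.

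Line-specific and like counts moved with their margin. At 1.1-fold they were 1 rise and 0 falls specific to MUTZ-1, 277 and 183 specific to SKM-1, and 36 rises and 57 falls alike. At 1.5-fold they were 45 and 31, 1809 and 1338, and 505 and 442. MUTZ-1-specific rises were 21 with chromosome medians removed, an alternative chosen after seeing the data, and 24 with a mean of 5 CPM over all libraries, and MUTZ-1-specific falls were 14 with the gene length trend removed. The causes were not tested.

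Leaving out each library in turn gave 3869 to 4154 more negative and 2954 to 3192 more positive differences, 1493 to 1882 and 1113 to 1306 opposite genes that fell and rose in MUTZ-1, 8 to 16 rises and 6 to 10 falls specific to MUTZ-1, 852 to 959 and 615 to 683 specific to SKM-1, and 177 to 229 rises and 161 to 218 falls alike. The 16 came without MUTZ-1 control replicate 2.

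Of 146 named genes, 8 lost and 9 gained a call of the difference in at least 1 of 21 fits. The difference changed sign for HMGCS1 (0.068), PSMB4 (0.070), SRSF5 (-0.091) and STAT2 (-0.054) with chromosome medians removed, and for WDR33 (-0.18) with the gene length trend removed, and the cause was not tested. Of the list medians under other settings, 351 values moved by more than the SD between replicates and 195 by less, and the signs are given beside the lists.

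Replicate numbers are shared by the groups, but control and knockdown libraries of a number did not deviate together (correlations -0.0702 to 0.0229), so the numbers were not taken as pairs. With the replicate block, 4158 differences were more negative and 3001 more positive, and 1858 and 1127 genes were opposite.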
